A study of Homo sapiens with 18 samples.

Results

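HSP90B1 and 9 other genes of protein folding in the endoplasmic reticulum were followed in a human neuroblastoma line after a short exposure to cocaine. The genes were HSP90B1, HSPA5, CALR, CANX, PDIA3, PDIA4, PDIA6, DNAJB9, HERPUD1 and SDF2L1, 10 of the 19775 genes that carry a symbol on the array. HSP90B1 was selected on its signal at 5 μM against 0 μM cocaine at 6 h in these same arrays, so that contrast is described here by its values, nothing is read from its counts of calls, and the other genes were chosen as its partners in the same compartment. By the platform annotation these genes have 29 probe sets, the groups of short probes that read one stretch of a transcript. Of these, 27 probe sets had a mean signal above 40 at 6 h, and 27 at 24 h, and all 10 genes kept at least 1 probe set. The exceptions were 1 of HERPUD1, with log2 signals of 3.91 to 5.04, and 1 of CANX, with 2.95 to 3.61.

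The cells were SH-SY5Y, a line from a human neuroblastoma, differentiated for 7 days in 10 μM retinoic acid and then kept for 24 h without it. Cocaine was given for 30 min at 0, 1 or 5 μM, and RNA was collected 6 h or 24 h later. Each of the 6 combinations of dose and time had 3 arrays, 18 in all, and each array held RNA pooled from 3 dishes. The labels call the 3 arrays of a group biological replicates. All groups, the untreated ones included, came from the same differentiation scheme in 1 cell line. In the labels, arrays stated to be 5 μM have wording of a non-treated control as well, and the stated dose was used. Signals are log2 values that were normalized separately at 6 h and at 24 h, so doses were compared within a time. In pooled cells, fewer cells of a type and less RNA per cell cannot be told apart.

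The endoplasmic reticulum is where secreted and membrane proteins are folded. HSPA5 (BiP) binds unfolded chains with the help of J-domain partners such as DNAJB9, and HSP90B1 (GRP94), the HSP90 relative of this compartment, takes over a set of clients for later folding steps. CALR and CANX hold glycoproteins through their sugars, with PDIA3 as their disulfide isomerase, and PDIA4 and PDIA6 form and rearrange other disulfide bonds. When unfolded proteins build up, the unfolded protein response raises transcription of these genes together, through ATF6 and XBP1 and promoter elements that carry a CCAAT box next to the letters CCACG.

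Because these genes are known for shared promoter elements, the 250 bases before each start were searched on both strands for letters of that kind in RefSeq promoters of GRCh38.p14. A promoter was found for 9 of the 10 genes (14 promoters, PDIA3 having none in the table used). The first motif was CCAAT and CCACG with any 9 bases between them, known as ERSE. It stood in 26 of 35116 promoters, 0.074%, and in promoters of 5 of the 9 genes, namely HSP90B1, HSPA5, PDIA6, CANX and CALR. The second motif was ATTGG and CCACG with 1 base between them, known as ERSE-II, which stood in 18 promoters, 0.0513%, among them those of HERPUD1 and SDF2L1. Either motif was in promoters of 7 of the 9 genes and in 0.125% of all promoters. Counted by promoter, ERSE was in 6 of the 14 of these genes and ERSE-II in 2 of the 14. The genes were known for such elements beforehand, so nothing is read from these shares. Neither was found in those of PDIA4 and DNAJB9. The matches are shown because they are what most of these genes have in common beside their function, and a match is a description and not a shown binding site. Capitals mark the letters of the motif, read as CGTGG and ATTGG (ERSE) or CGTGG and CCAAT (ERSE-II) where it lies on the opposite strand.
HSP90B1, chr12:103930196-103930254, plus strand: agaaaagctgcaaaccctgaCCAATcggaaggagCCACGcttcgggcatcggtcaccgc
HSP90B1, chr12:103930301-103930359, plus strand: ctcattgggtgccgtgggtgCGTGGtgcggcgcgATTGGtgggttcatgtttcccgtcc
HSPA5, chr9:125241371-125241429, minus strand: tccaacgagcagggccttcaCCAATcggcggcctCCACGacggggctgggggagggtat
PDIA6, chr2:10812833-10812891, minus strand: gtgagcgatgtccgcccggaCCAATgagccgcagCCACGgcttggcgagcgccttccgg
CANX, chr5:179698758-179698816, plus strand: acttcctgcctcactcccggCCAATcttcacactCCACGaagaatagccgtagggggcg
CALR, chr19:12938364-12938422, plus strand: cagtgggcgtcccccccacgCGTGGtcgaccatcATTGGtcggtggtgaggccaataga
HERPUD1, chr16:56932005-56932055, plus strand: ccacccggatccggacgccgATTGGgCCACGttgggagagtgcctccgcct
SDF2L1, chr22:21642094-21642144, plus strand: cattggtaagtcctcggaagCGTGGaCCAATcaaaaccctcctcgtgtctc

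Several measures set apart arrays used below. CYP26A1, which retinoic acid induces, had log2 signals of 5.01, 10.69 and 10.99 in the untreated arrays at 6 h and 4.95 to 5.61 in the cocaine arrays of that time, so untreated arrays 2 and 3 stood apart. In the untreated arrays at 24 h it was 5.40, 6.04 and 9.55, with 4.92 to 6.31 in the cocaine arrays. The difference between the hybridization controls bioD and cre, which are added to every sample at fixed amounts, was -1.04 to -0.929 in untreated arrays at 6 h and -1.55 to -1.37 in cocaine arrays. The difference between the 3' and 5' probe sets of ACTB, a measure of RNA integrity, was 0.493 to 0.539 in 5 μM arrays at 6 h, below all untreated arrays (0.548 to 1.12) and all 1 μM arrays (0.603 to 0.724). For GAPDH it was 0.154 to 0.172 with 1 μM, below all untreated arrays at 0.215 to 0.255. With 5 μM it was 0.197, 0.242 and 0.190, of which 0.242 lay among the untreated values and the others below them. Of 7 neuroblastoma markers read, 6 were above the signal limit and TH, at 3.50 at 6 h and 3.87 at 24 h, was below it. Of 5 fibroblast or mesenchymal markers, 4 were above it, COL3A1 at 10.3 at 6 h and 10.8 at 24 h among them. So were 2 of 4 epithelial markers at 6 h, 3 of 4 at 24 h, and 1 of 2 blood markers. Of these last, HBB at 5.34 and 5.40, KRT8 at 5.55 and 5.49 and EPCAM at 5.44 at 24 h were near the limit of 5.32. KRT18, at 9.08 and 9.42, was well above it. The part of these measures in the results below was not tested.

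HSP90B1 has 4 probe sets, named here by the order of their mean signal as the dimmest, lower-middle, upper-middle and brightest one, an order used as a name only. At 6 h, 3 of the 4 were higher in cocaine arrays, in the order of the dose means, and the other one was not. For the dimmest probe set the 3 untreated arrays read 6.43, 6.53 and 6.39. With 1 μM they read 7.35, 7.33 and 7.10, and with 5 μM 7.73, 7.57 and 7.41. All 3 doses were apart from each other, with no overlap between arrays. The mean was higher by 1.12 (SE 0.10, n = 3 arrays per dose) at 5 μM than at 0 μM, by 0.81 at 1 μM than at 0 μM and by 0.31 at 5 μM than at 1 μM. The last 2 of these differences share arrays with the one that chose the gene and are descriptions too.

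The lower-middle probe set read 10.18, 10.02 and 10.09 untreated, 10.59, 10.49 and 10.34 with 1 μM, and 10.74, 10.60 and 10.49 with 5 μM. For the upper-middle one the values were 11.09, 11.03 and 10.96, then 11.49, 11.47 and 11.27, then 11.70, 11.53 and 11.39. In both probe sets every cocaine array was above every untreated array, while the arrays of 1 and 5 μM overlapped. The difference between 5 and 0 μM was 0.51 in each (SE 0.09). The brightest probe set read 12.29, 12.20 and 12.01 untreated and 12.19, 12.22 and 12.07 with 5 μM, a difference of 0.00 (SE 0.10). The size of the HSP90B1 difference at 6 h therefore ran from 0.00 to 1.12 with the probe set that was read.

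**Figure D1:**
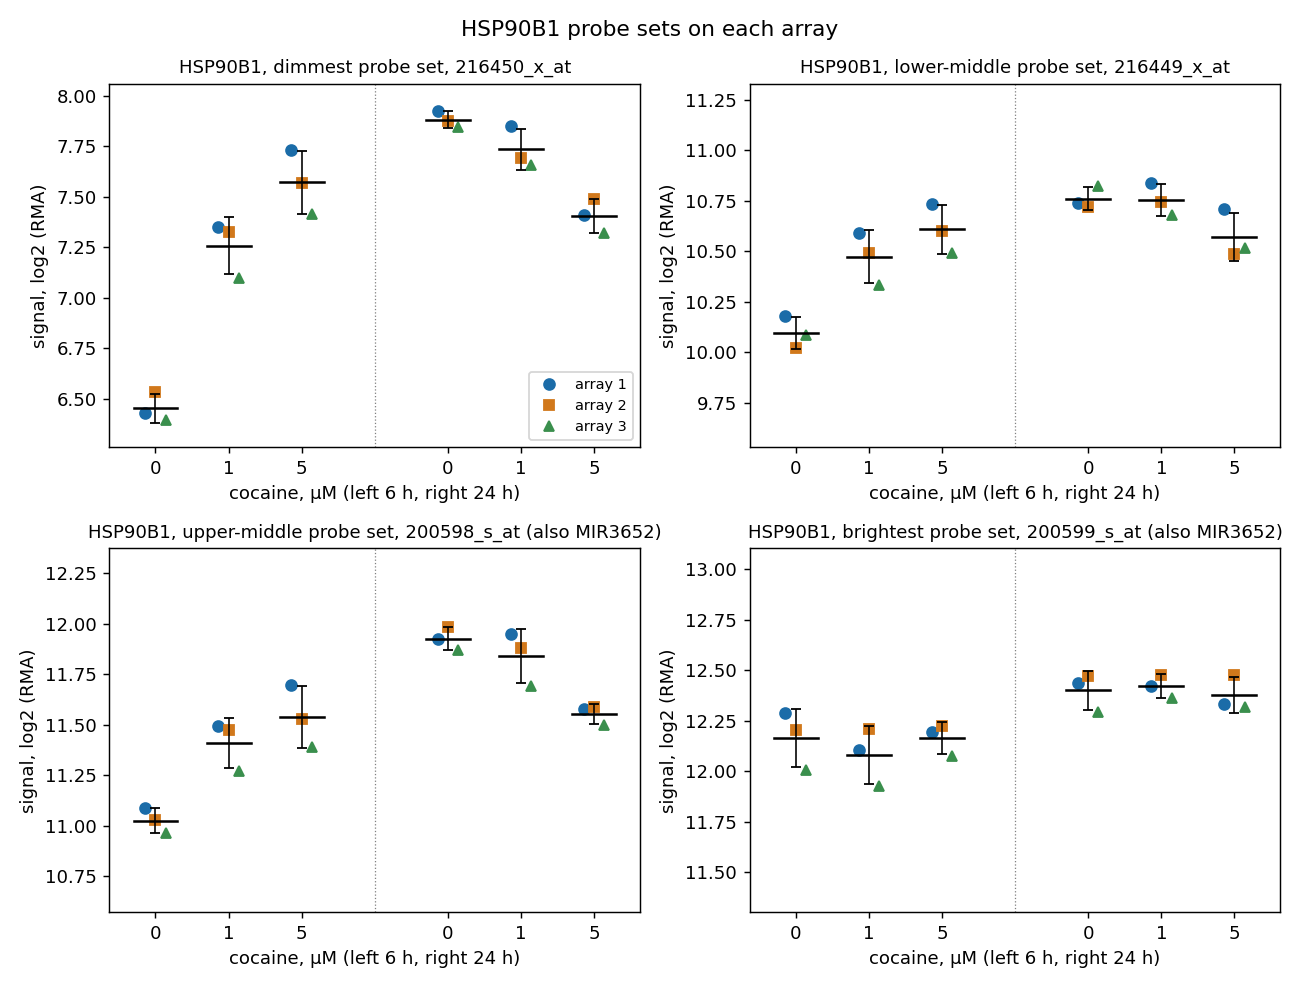
Log2 signal of the 4 HSP90B1 probe sets in each of the 18 arrays, by cocaine dose (μM) at 6 h and 24 h. Points are arrays, bars the mean and SD of 3 arrays. At 6 h the dimmest probe set stands at 6.39 to 6.53 untreated and 7.41 to 7.73 at 5 μM, and at 24 h the order is turned, 7.84 to 7.92 against 7.32 to 7.49.

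The names of the probe sets bear on this spread. By the maker's naming, an ending in _x_at marks probes of which some also match other sequences, and one in _s_at marks probes shared by several transcripts. The dimmest and lower-middle ones have the first ending and the others the second. The annotation gives the upper-middle and brightest ones to both HSP90B1 and MIR3652, a microRNA gene that lies within HSP90B1 in RefSeq. How much related sequences add to each signal was not tested. Leaving out untreated arrays 2 and 3, the 2 with high CYP26A1, left differences between 5 and 0 μM of 1.14, 0.43, 0.45 and -0.12 from the dimmest to the brightest probe set, each against a single untreated array.

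The arrays at 24 h took no part in the choice of HSP90B1, and there the 5 μM arrays were below the untreated ones in the same 3 probe sets, without passing the limma test after adjustment over all 24307 probe sets. For the dimmest probe set the values were 7.92, 7.88 and 7.84 untreated, 7.85, 7.69 and 7.66 with 1 μM, and 7.41, 7.49 and 7.32 with 5 μM. The 5 μM arrays lay below all others. The difference between 5 and 0 μM was -0.48 (SE 0.07, 95% interval -0.64 to -0.32), with a limma adjusted p of 0.33. Over the other ways of processing the adjusted p ran from 0.074 to 0.945, the lowest with all 18 arrays in 1 fit, the single setting that passed the threshold of 0.1. The interval is for this probe set alone, taken without adjustment for the number of probe sets.

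The same comparison at 24 h gave -0.37 (95% interval -0.54 to -0.20, limma adjusted p = 0.38) in the upper-middle probe set, which read 11.93, 11.98 and 11.87 untreated and 11.58, 11.59 and 11.50 with 5 μM. In the lower-middle one, with 10.74, 10.72 and 10.82 untreated and 10.71, 10.49 and 10.52 with 5 μM, the difference was -0.19 (95% interval -0.36 to -0.02, limma adjusted p = 0.65). In the brightest one it was -0.02 (95% interval -0.19 to 0.14). The 5 μM arrays were below every untreated array in the first 2 of these probe sets, and they overlapped in the brightest one. Between 1 and 0 μM at 24 h, arrays overlapped in all 4 probe sets.

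Beside these values at 24 h, the difference between the 3' and 5' probe sets of ACTB was 0.686 to 1.03 in 5 μM arrays and 0.420 to 0.655 in the others. The same measure for GAPDH was 0.175 to 0.221 in 5 μM arrays and 0.141 to 0.196 in the others. The difference between bioD and cre at 24 h was -1.17 to -1.15 in untreated arrays, -1.14 to -1.08 with 1 μM and -1.11 to -1.05 with 5 μM, so every untreated array was below every cocaine array, where at 6 h every one was above. The 5 μM arrays had the highest ACTB values of the 3 doses at 24 h and the lowest at 6 h. Their part in the HSP90B1 values was not tested.

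The dimmest probe set was also read relative to the lower-middle one within each array. A factor that scales a whole array cancels in such a subtraction. One that acts unequally on the 2 probe sets does not cancel, and the part of such factors was not tested. The dimmest one was taken for its difference between 5 and 0 μM at 6 h, the largest among the HSP90B1 probe sets. A positive relative value for these doses at 6 h was fixed by that choice, so the 6 h values are descriptions. At 6 h the relative signal was higher by 0.61 at 5 μM than at 0 μM, by 0.43 at 1 μM than at 0 μM, and by 0.18 at 5 μM than at 1 μM. At 24 h the 5 μM mean minus the 0 μM mean was -0.286 on the log2 scale, and the arrays of the 2 doses did not overlap. An exact two-sided permutation test gave p = 0.1 (0.15 adjusted over 3 comparisons), the smallest p that 3 against 3 arrays allow. The 1 and 0 μM arrays at 24 h were also apart, by -0.140 (exact permutation p = 0.1, adjusted 0.15), and those of 5 and 1 μM overlapped, with -0.145 (exact permutation p = 0.3). Relative to the brightest probe set the 5 against 0 μM value at 24 h was -0.453 (exact permutation p = 0.1).

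**Figure D2:**
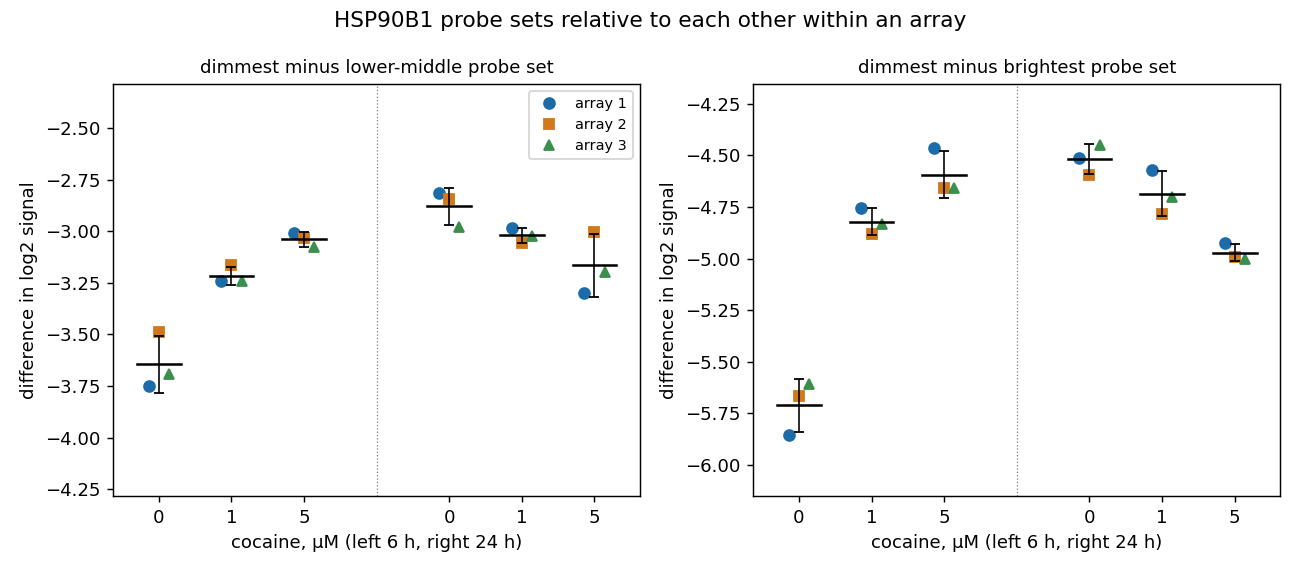
Log2 signal of the dimmest HSP90B1 probe set minus that of the lower-middle one (left) and of the brightest one (right) in each array, by cocaine dose (μM) at 6 h and 24 h, with the mean and SD of 3 arrays. On the left, the 5 μM mean minus the untreated mean is 0.61 at 6 h, positive by the choice of the dimmest probe set, and -0.286 at 24 h.

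HSPA5, the major chaperone of the compartment, showed no such difference. Its brighter probe set read 11.69, 11.40 and 11.20 untreated at 6 h and 11.58, 11.46 and 11.29 with 5 μM, a difference of 0.01 (SE 0.14). At 24 h it read 11.70, 11.70 and 11.26 untreated and 11.49, 11.67 and 11.36 with 5 μM, a difference of -0.05 (95% interval -0.38 to 0.28). Its dimmer probe set differed by 0.01 and 0.05. Arrays of all doses overlapped in both.

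DNAJB9, a J-domain partner of HSPA5 that also serves degradation, was lower at 6 h in 1 of its 3 probe sets. That probe set, the dimmest of them, read 8.01, 8.12 and 8.04 untreated, 7.70, 7.85 and 7.91 with 1 μM, and 7.75, 7.80 and 7.89 with 5 μM. All cocaine arrays were below all untreated ones, and the difference at 5 μM was -0.25 (SE 0.07). In the brightest it was 0.02 and in the other one -0.10, both with overlapping arrays. At 24 h the 3 probe sets differed by 0.01, -0.08 and -0.26 in that order, the last with a 95% interval of -0.51 to -0.004.

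SDF2L1, which binds J-domain partners of HSPA5, read 8.17, 7.99 and 7.76 untreated at 6 h, 8.39, 8.16 and 8.10 with 1 μM, and 8.34, 8.12 and 8.24 with 5 μM. Arrays of the doses overlapped, though each cocaine array was above the untreated array of the same replicate number. The difference at 5 μM was 0.26 (SE 0.12). At 24 h it was 0.08 (95% interval -0.29 to 0.44). HERPUD1, a membrane protein of endoplasmic reticulum-associated degradation, differed by 0.06 at 6 h in the probe set that was kept. At 24 h that probe set read 9.60, 9.46 and 9.46 untreated and 9.39, 9.44 and 9.39 with 5 μM. The 5 μM arrays were below the untreated ones, by -0.10 (95% interval -0.24 to 0.03).

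Of the lectin chaperones, CALR differed by 0.08 at 6 h in its brightest probe set. At 24 h this probe set read 9.95, 9.93 and 9.68 untreated, 9.93, 9.93 and 9.76 with 1 μM, and 10.15, 9.99 and 9.97 with 5 μM. The 5 μM arrays were all above the others, with a difference from 0 μM of 0.18 (95% interval -0.03 to 0.39, limma adjusted p = 0.71). CANX had a difference of -0.02 at 6 h in its brightest probe set. In the third brightest the 6 h values were 8.54, 8.03 and 7.94 untreated, 8.13, 8.27 and 7.91 with 1 μM, and 8.51, 8.67 and 8.49 with 5 μM. The 5 μM arrays were above those of 1 μM, while 1 untreated array lay among them, and the difference from 0 μM was 0.39 (SE 0.16).

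PDIA3, the isomerase that works with both lectins, read 11.95, 11.87 and 11.71 untreated and 12.01, 11.90 and 11.75 with 5 μM at 6 h in its brightest probe set, a difference of 0.04. At 24 h its 3 probe sets differed by -0.01, -0.03 and -0.005. PDIA4 differed by 0.12 in its dimmer and -0.01 in its brighter probe set at 6 h, and by 0.04 and 0.13 at 24 h. PDIA6, a disulfide isomerase that binds HSPA5, had its largest 6 h difference in the second brightest probe set, with 11.67, 11.51 and 11.34 untreated and 11.80, 11.75 and 11.65 with 5 μM. Those arrays overlapped, though each 5 μM array was above the untreated array of the same replicate number, and the difference was 0.23 (SE 0.10). Its 4 probe sets differed at 24 h by -0.07 to -0.10.

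Over the 23 probe sets of the 9 genes other than HSP90B1, the median difference between 5 and 0 μM was 0.02 at 6 h, with a range of -0.25 to 0.39. At 24 h it was -0.03, with a range of -0.26 to 0.18 and a smallest limma adjusted p of 0.683. The median over all 27 probe sets was 0.02 at 6 h, where that of all probe sets was -0.02, and -0.05 at 24 h, where that of all probe sets was -0.0002.

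**Figure D3:**
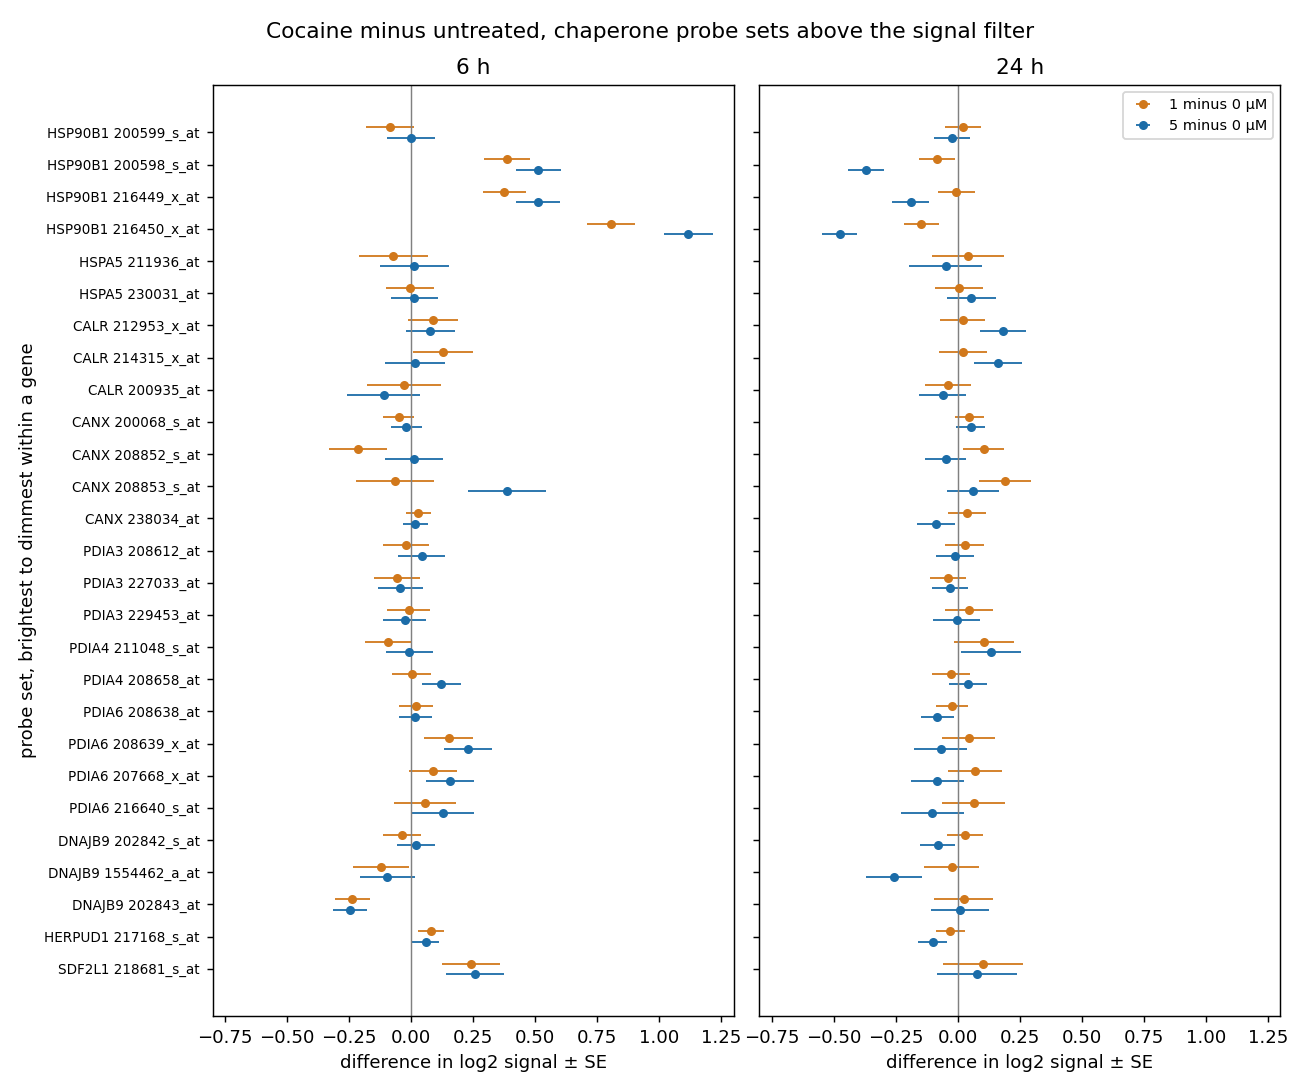
Difference in log2 signal from 0 μM for 1 and 5 μM cocaine in the 27 probe sets of the 10 genes at 6 h and 24 h. Points are differences of means over 3 arrays, bars the SE from limma, and probe sets run from brightest to dimmest within a gene. For 5 μM at 6 h, 3 HSP90B1 probe sets, at 0.51, 0.51 and 1.12, stand above the other genes, at -0.25 to 0.39. The brightest HSP90B1 probe set, at -0.001, lies within that range. HSP90B1 was chosen by its difference between 5 and 0 μM at 6 h, so nothing is read from its place there. For 5 μM at 24 h the lowest value is -0.48, in the dimmest HSP90B1 probe set.

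Counted over all 10 genes at 6 h, limma called 3 of 27 probe sets higher at 5 μM than at 0 μM and none lower, the 3 being those of HSP90B1, at an adjusted p under 0.1, where 2.98% of all 22455 probe sets were called. Arrays of these doses did not overlap in 5 of the 27 probe sets, 4 above and 1 below, with 21.2% over all. Since HSP90B1 was chosen by this contrast, nothing is read from these counts. Between 1 and 0 μM limma called none of the 27, with 4 at an unadjusted p under 0.05, and 0% of all probe sets, with 3222 at that p. Non-overlap held for 3 above and 1 below, with 17.4% over all. Between 5 and 1 μM at 6 h limma called none, with 2 at an unadjusted p under 0.05, and 0% over all, and 2 probe sets did not overlap, with 13.5% over all. They were the dimmest of HSP90B1 and the third brightest of CANX.

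The replicate numbers of the labels paired the arrays, and with the number as a block in the fit the 6 h counts changed. Between 5 and 0 μM, 6 probe sets were then called higher and 1 lower, where 18.6% of all were called. Those added were 2 of PDIA6, the one of SDF2L1 and, lower, the dimmest of DNAJB9. Between 1 and 0 μM, 4 were called higher and 1 lower, where 12.5% of all were called. These were the 3 probe sets of HSP90B1, by 0.81, 0.38 and 0.39, and SDF2L1, by 0.24, and the dimmest of DNAJB9, with -0.24. Both comparisons share the untreated arrays with the choice of HSP90B1, and nothing is read from these counts either.

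At 24 h limma called none of the 27 probe sets in any of the 3 comparisons, with or without the block. Between 5 and 0 μM, 4 had an unadjusted p under 0.05 and 0.0123% of all probe sets were called, 3 of 24307. Between 5 and 1 μM 3 had such a p, and 0.00823% of all were called. Between 1 and 0 μM none had such a p, and 0% of all were called, with 819 probe sets at an unadjusted p under 0.05. Arrays of 5 and 0 μM did not overlap in 5 of the 27, with 10.4% over all, of which the brightest of CALR was above and 3 of HSP90B1 and 1 of HERPUD1 were below. Between 5 and 1 μM it was also 5 of 27, 1 above and 4 below, with 11.1% over all, and between 1 and 0 μM none, with 7.2% over all.

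In several of the chaperones the spread between replicate numbers was wider than that between doses. In HSPA5 the means of the 3 replicate numbers spanned 0.367 at 6 h and the means of the 3 doses 0.0835, and at 24 h the spans were 0.372 and 0.0900. For PDIA3 they were 0.235 and 0.0610 at 6 h, and for SDF2L1 0.389 and 0.102 at 24 h. In the dimmest probe set of HSP90B1 the order was the other way, 0.201 between numbers and 1.12 between doses at 6 h, and 0.121 and 0.476 at 24 h. Its 6 h order came with the choice of gene and probe set. The lower-middle and upper-middle ones had the same order, but the brightest did not. Its spans were 0.210 between numbers and 0.0841 between doses at 6 h, and 0.151 and 0.0437 at 24 h. HERPUD1 also had the wider span between doses, with 0.0675 and 0.0800 at 6 h and 0.0546 and 0.102 at 24 h. Array 3 was the lowest of its group at all 3 doses in 16 of 27 probe sets at 6 h, where this held for 12.6% of all probe sets, and in 17 of 27 at 24 h, with 16.6% over all. Read by brightest probe sets, it held for 5 of 10 genes at each time. This count was chosen after the values were seen, and probe sets of one gene share its transcripts. What the replicate numbers stand for beyond their order is not given in the sources used here.

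**Figure D4:**
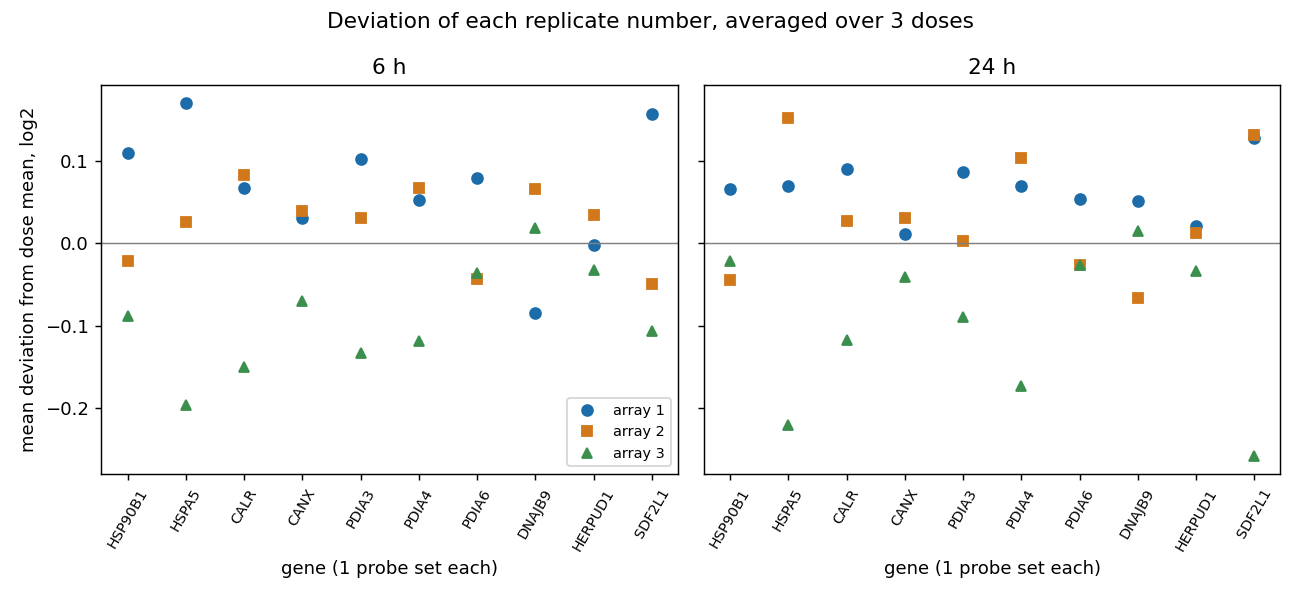
Deviation of log2 signal from the dose mean, averaged over the 3 doses for each replicate number, at 6 h and 24 h. Each of the 10 genes is shown by its brightest probe set with 1 symbol, and each point is 1 replicate number. Array 3 lies lowest in genes such as HSPA5, where the 3 numbers span 0.367 at 6 h and 0.372 at 24 h.

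Other genes of the same pathways were read from 6 lists with 110 genes, of which 102 were measured at 6 h and 104 at 24 h. They covered partners in folding, endoplasmic reticulum-associated degradation, sensors and effectors of the unfolded protein response, translocation and glycosylation, retrieval and exit from the compartment, and the other HSP90 genes. At 5 against 0 μM at 6 h, limma called 5 genes higher and 3 lower in at least 1 probe set, where 5.01% of all 11943 genes were called. With each gene read by its brightest probe set 4 were called, with 2.08% over all. The medians of the 6 lists were -0.08 to 0.01, and that of all genes was -0.03.

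Of 22 measured folding partners none was called, among them HYOU1, a helper of HSPA5, with 0.05 and DNAJB11, a J-domain partner, with 0.02. Of 17 degradation genes 3 rose at 5 μM, in 1 probe set each, namely EDEM3, a mannosidase, by 0.58 (limma adjusted p = 0.0432), UBE2J1, a ubiquitin-conjugating enzyme, by 0.45 (0.061) and UBXN4, which recruits VCP, by 0.42 (0.0975). The other EDEM3 probe sets, both brighter, differed by -0.36, with all 5 μM arrays below the untreated ones, and by 0.23, with all above, neither called. Of 18 sensors and effectors of the unfolded protein response 1 was called, MBTPS1, the protease that activates ATF6, which fell by 0.23 (limma adjusted p = 0.0948). XBP1 had a difference of -0.14, ATF4 of -0.18 and DDIT3 of -0.10, none of them called. These members were named for their roles after their values were seen.

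Among 25 genes of translocation and glycosylation, SEC63 was higher by 0.24 in 1 of its 4 probe sets (limma adjusted p = 0.0977). SEC62 fell by 0.37 (limma adjusted p = 0.0826) in a probe set that was not its brightest, and its brightest was not called. Both are parts of the translocation channel's post-translational route. The other SEC63 probe sets differed by -0.18 in the brightest, -0.16 and -0.04, none called, and in the first 2 of these all 5 μM arrays were below the untreated ones. Among 17 genes of retrieval and exit, SEC31A, a coat protein of vesicles that leave the compartment, fell by 0.21 (limma adjusted p = 0.0925). Of the 3 HSP90 relatives, HSP90AB1, the cytosolic constitutive form, rose in 1 of its 3 probe sets, which read 11.68, 11.35 and 11.51 untreated, 11.81, 11.89 and 11.69 with 1 μM, and 11.98, 12.03 and 12.10 with 5 μM. The 3 doses did not overlap. The difference was 0.52 (limma adjusted p = 0.0529), while the brightest HSP90AB1 probe set differed by 0.06.

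With the replicate block, 22 list genes were called higher and 16 lower at 5 against 0 μM at 6 h, where 28.1% of all genes were called, and 14 higher and 17 lower at 1 against 0 μM, where it was 19.7%. EDEM3, FAF2, HERPUD2 and SEC63 had probe sets called in both directions, 4 of 64 list genes with 2 or more probe sets, where this held for 3.41% of all such genes. At 24 h no list gene was called in any comparison, where 0.00786% of all genes were called at 5 against 0 μM, 1 of 12719. The medians of the lists at 5 against 0 μM were then -0.02 to 0.07, and that of all genes was 0.002.

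The probe sets whose signal followed that of the dimmest HSP90B1 probe set most closely, among genes outside the 10, over the 18 arrays, after the mean of each time was removed, were those of ITPRIPL2 (Pearson's r = 0.947), KLHDC10 (0.942), PRKCI (0.929), UBN1 (0.927) and TFAM (0.925), out of 21340 compared. For the lower-middle one they were GNG4 (0.935), TGOLN2 (0.919), KLHDC10 (0.91), TOX4 (0.909) and SYNCRIP (0.905). KLHDC10 was higher by 0.92 at 5 than at 0 μM at 6 h and lower at 24 h, with -0.37, a course that comes with its choice by likeness. These values describe the order of arrays that share their RNA, dose and normalization, and they carry no test.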

How the data were processed

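Signals came from 18 Affymetrix U133 Plus 2.0 arrays of SH-SY5Y cells. The authors deposited log2 values of 54675 probe sets, summarized and normalized by RMA separately for each time, and the labels name limma for their comparisons. Probe sets were named through GEO's platform annotation. Of the probe sets, 41097 had 1 symbol, 1801 several and 11777 none, and 41043 of those with 1 symbol matched RefSeq by gene ID.

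Groups were taken from the labels. Probe sets with a mean above 40 before log2 (5.32 on the log2 scale) and at least 1 symbol were kept, 22455 at 6 h and 24307 at 24 h. The 9 arrays of a time were fitted with limma 3.58.1 (lmFit and eBayes) in R 4.3.3, with Benjamini-Hochberg adjustment over all kept probe sets and a threshold of 0.1. The procedure was tested on simulated data. These were drawn independently for each array, so they lacked the pairing by replicate number described below. Where several probe sets read a gene, each is given, and the brightest used to stand for a gene is the one of highest mean among those with 1 symbol, for HSP90B1 the lower-middle one of its 4. Differences between 2 probe sets were compared by exact permutation. Confidence intervals are at 95%, and they and the SEs come from the fit without the replicate block. The number of arrays limits the precision, and p-values measure the spread between pools of dishes of one cell line.

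The replicate numbers were checked for pairing. Deviations from the group means correlated more closely between arrays with the same number. At 6 h r was 0.377 to 0.768 over the 9 same-number pairs, with -0.632 to 0.0711 over the 18 other pairs. At 24 h the 9 same-number pairs had 0.424 to 0.733, with -0.575 to 0.165 for the others. The numbers thus paired the arrays, and a fit with the number as a block was run. The other alternatives were other filters and thresholds, array weights, a trended and robust fit, all 18 arrays or only the 6 compared in 1 fit, quantile normalization, median centring, 1 probe set per gene and each array, or untreated arrays 2 and 3 together, left out. The members and the lists were chosen with earlier results of these data known. The named genes were the members, the list genes called and the 5 probe sets most like each of 2 HSP90B1 probe sets, with a few uncalled list genes added for their roles after their values were seen.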

Additional observations from a re-analysis of the deposited data

Results flagged for a closer look

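Among the 27 probe sets of the 10 genes, changes in opposite directions at 6 h and 24 h were found in 5 cases. In each, the arrays of the 2 doses did not overlap at either time. The share over all probe sets was not counted, so nothing is read from this count, and list genes outside the 10 had such changes too. For 5 against 0 μM, non-overlap at a single time held for 21.2% of all probe sets at 6 h and 10.4% at 24 h. For 5 against 0 μM, MBTPS1 had -0.23 at 6 h and 0.28 at 24 h, and a FAF2 probe set had 0.73 and -0.30. The difference between the times was not tested, since the times were normalized separately. The cases other than that of HERPUD1 are in HSP90B1, which was chosen by its 6 h values, and its dimmest probe set appears under both dose pairs. For 5 against 0 μM, the change at 24 h minus that at 6 h was -1.594 on the log2 scale in the dimmest probe set of HSP90B1 (1.12 at 6 h and -0.48 at 24 h). In the upper-middle one, annotated to HSP90B1 and MIR3652, it was -0.8836 (0.51 and -0.37), and in the lower-middle one it was -0.7026 (0.51 and -0.19). For 5 against 1 μM, the dimmest one gave -0.6415 (0.31 and -0.33). In HERPUD1, 5 against 0 μM gave -0.1605 (0.06 and -0.10).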

How the results depend on the processing

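No difference that was called reversed its direction under any alternative run. The count of called probe sets among the 27 changed in 4 of the 6 comparisons. For 1 against 0 μM at 6 h it was 0 and became 5 with the replicate block, which uses the pairing of the arrays, 3 with all 18 arrays in 1 fit, 1 with a trended and robust fit and 4 with array weights. It was 0 to 3 when single arrays were left out, 3 without untreated array 1. For 5 against 0 μM at 6 h it was 3 and became 7 with the replicate block, 6 with array weights, 2 with only the 6 arrays compared, where the upper-middle HSP90B1 probe set lost its call, 1 at an adjusted p under 0.05 and 1 with 1 probe set per gene. Leaving out single arrays gave 0 to 5: 0 without 5 μM array 2, 1 without untreated array 2, untreated array 3, 5 μM array 1 or 5 μM array 3, and 5 without untreated array 1. Without untreated arrays 2 and 3 it was 0, and with the block as well, a choice made after seeing the data, 3. In that blocked fit the counts were 6 for 1 against 0 μM and 2 for 5 against 1 μM. For 5 against 0 μM at 24 h the count was 0 and became 1 with all 18 arrays in 1 fit, the dimmest probe set of HSP90B1. Relative to the brightest HSP90B1 probe set, chosen after seeing the data, the dimmest gave -0.2855 for 5 against 1 μM and -0.4531 for 5 against 0 μM at 24 h, and single arrays left out moved the values relative to the lower-middle one to -0.368 to -0.219 for 5 against 0 μM, -0.191 to -0.109 for 1 against 0 μM and -0.227 to -0.0787 for 5 against 1 μM. The paired sign-flip test of those values gave p = 0.25 for 5 against 0 μM, an exact permutation whose smallest p is 0.25. Of 510 single HSP90B1 values 475 stayed on their side of the threshold, 17 lost a call and 18 gained one. The other genes had no call to lose, and of their 2946 values 16 gained one. The cause of these changes was not tested beyond the fewer arrays or probe sets of each setting.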
